A study of Mus musculus with 6 samples.

Results

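The genes described here are the secreted and membrane-bound messengers of inflammation and their receptors: the CC and CXC chemokines, the interleukins with their receptors, and the tumour necrosis factor (TNF) ligand and receptor superfamilies. They were taken by name, as every gene in the count table whose symbol begins with Ccl, Cxcl, Tnfsf or Tnfrsf and a digit, or with Il and a digit, which gave 148 of 24028 genes. The rule uses names alone, though it was set with earlier results of these data known. The members comprised 21 CC chemokines, 13 CXC chemokines, 38 interleukin ligands, 42 interleukin receptors or binding proteins, 11 TNF superfamily ligands, 20 TNF receptors and 3 others.

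Polyadenylated RNA was sequenced from C2C12, an immortalised line of mouse myoblasts (muscle precursor cells), in a clonal derivative named MMH6 that was kept under puromycin. MMH6 holds a doxycycline-switched, codon-altered chimera of the transcription factors mouse Dux, which supplies the homeodomains that bind DNA, and human DUX4, which supplies the remainder of the protein. The induced group was 3 cultures given 2 µg/ml doxycycline and the uninduced group was 3 cultures of the same clone without it. Exposure lasted 18 h by the series text but 36 h by the sample protocol, and which holds could not be settled. All cultures carry the transgene and derive from 1 clone, and drug and transgene cannot be told apart because doxycycline on cells lacking the chimera was not analysed here.

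Chemokines are small secreted proteins that steer the migration of leukocytes by binding G protein-coupled receptors, and CC and CXC chemokines are named after the spacing of their conserved cysteines. Interleukins and TNF family ligands act through receptors assembled from ligand-specific and shared subunits, and many of those receptors end in NF-kappaB or JAK-STAT signalling. In muscle, such signals are known for recruiting macrophages after injury and for tuning myoblast proliferation and fusion.

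The libraries held 21.5 to 24.5 M counts each, and libraries of the same group had a Pearson r of 0.993 to 0.997 across genes. The Dux row held 252, 216 and 220 counts in induced libraries, against 1, 3 and 0 in uninduced libraries. Levels of a gene across libraries are given as CPM, its counts over a library size scaled by the trimmed mean of M-values (TMM). The order of the tested members by level is given as RPKM, which is CPM per kilobase of exon. Sums over genes are in CPM and are not corrected for length. Without TMM factors, that is scaled by total counts alone, the median log2 fold change of all tested genes was -0.97, against -0.01 with TMM scaling, so each fold change below is relative to the TMM baseline. Myoblast markers summed to 1396 to 1453 CPM in induced libraries, against 2244 to 2284 CPM in uninduced libraries, and their part in the values of the members was not tested. In bulk RNA, fewer cells expressing a gene and less RNA per cell cannot be told apart.

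Of the 148 members, 119 had at least 1 count and 50 passed the filter on low counts. With edgeR's quasi-likelihood test at a Benjamini-Hochberg adjusted p of 0.05, 22 of these 50 were higher in induced cells, 18 were lower and 10 were not called. Among all 12969 genes tested, 41.3% were higher, 41.2% were lower and 82.5% were called in either direction, so the share of members called, 80%, was near the background. Without TMM factors the split of the members was 16 higher and 30 lower, and of the 10 not called only Tnfrsf19 stayed uncalled, the other 9 being lower. The median log2 fold change was -0.12 over the tested members and -0.01 over all tested genes. At 2-fold or more, 17 members were higher and 12 were lower, against a background of 18% and 12.7% of all genes tested. The libraries of the groups did not overlap for 40 of the 50, against 83.1% of all tested genes. A gene can pass the filter on the level of 1 group alone, and of the 35 members with a mean of 1 CPM or more in uninduced libraries, 14 were higher, 16 were lower and 5 were not called. In summed level, all members together reached 1093 ± 11.8 CPM in induced and 815 ± 12.5 CPM in uninduced libraries (SD, n = 3 each). As a share of raw counts the order was the reverse, with members taking 0.0774% to 0.0791% of counts in induced libraries and 0.113% to 0.116% in uninduced libraries.

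**Figure D1:**
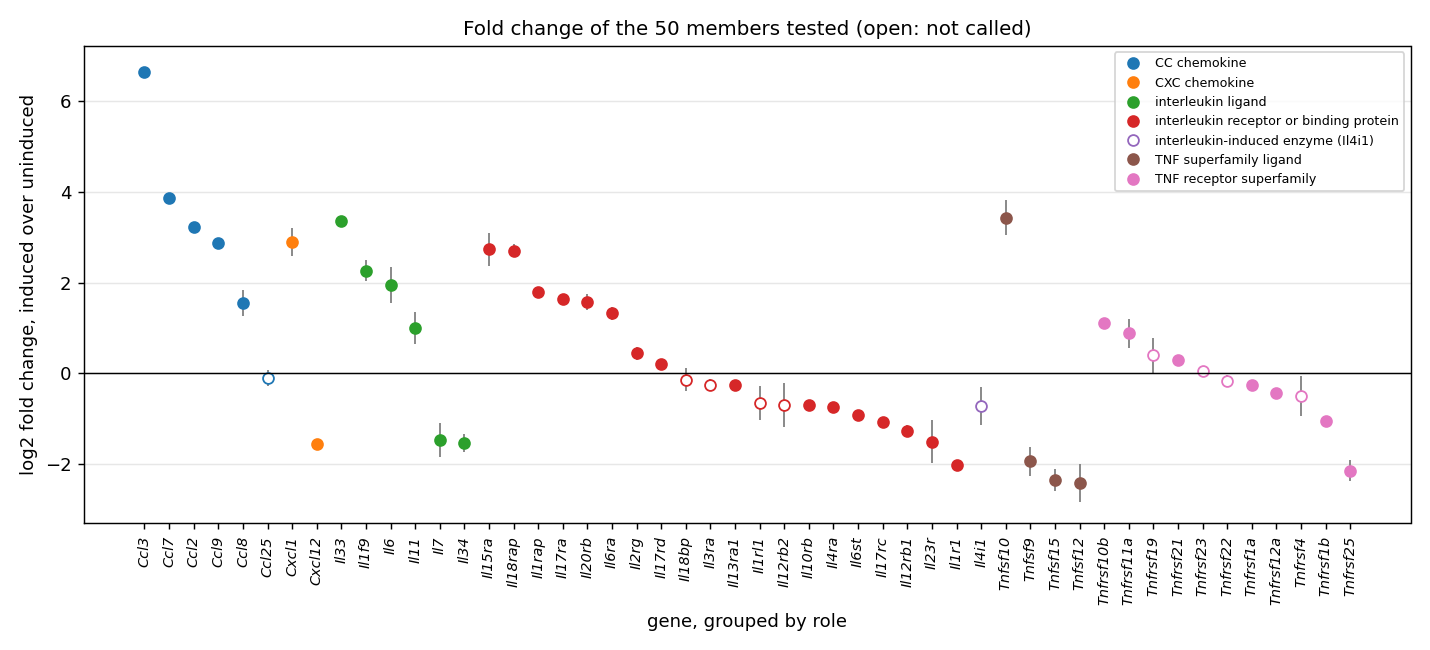
Log2 fold change, induced over uninduced, for the 50 members that passed the count filter, grouped by role, with bars of 1 standard error. Filled points passed an adjusted p of 0.05 and open points did not; Ccl3 stands highest at 6.63 and Tnfsf12 lowest at -2.41.

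Of the 6 CC chemokines that could be tested, 5 were higher in induced cells, none was lower and 1 was not called. Among all tested genes, 41.3% were higher and 41.2% were lower. The 21 CC chemokines together summed to 366 ± 15.1 CPM in induced libraries and 31.8 ± 2.02 CPM in uninduced libraries (SD, n = 3 each). The 5 genes lie in the Ccl gene clusters of chromosome 11, and 4 of them, Ccl3, Ccl7, Ccl2 and Ccl9, encode attractants of monocytes and macrophages that were higher by a log2 fold change of 2.87 to 6.63. RefSeq promoter windows were matched to 113 of the 148 members. Those of Ccl3, Ccl9 and Ccl8 are printed to show the starts from which the clustered genes are read, together with those of Cxcl1 and Il33, the tested CXC chemokine and interleukin ligand with the largest rises. Each window is the 250 bases before the start on the gene's own strand (RefSeq, GRCm38.p6), 5′ to 3′, and capitals mark matches to a TATA box in the letters TATAAA, an AP-1 site in the letters TGANTCA or the kappaB consensus, each on either strand.
Ccl3, chr11:83649379-83649628, minus strand: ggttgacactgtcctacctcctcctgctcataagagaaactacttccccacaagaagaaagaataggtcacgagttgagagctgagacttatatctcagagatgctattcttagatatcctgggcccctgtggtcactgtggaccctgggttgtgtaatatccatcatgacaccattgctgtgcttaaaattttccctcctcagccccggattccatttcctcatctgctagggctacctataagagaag
Ccl9, chr11:83578637-83578886, minus strand: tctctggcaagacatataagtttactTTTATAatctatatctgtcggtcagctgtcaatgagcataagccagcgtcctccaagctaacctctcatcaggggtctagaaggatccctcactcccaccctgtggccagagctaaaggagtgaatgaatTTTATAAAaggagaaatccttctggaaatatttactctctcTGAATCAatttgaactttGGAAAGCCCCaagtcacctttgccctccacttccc
Ccl8, chr11:82114935-82115184, plus strand: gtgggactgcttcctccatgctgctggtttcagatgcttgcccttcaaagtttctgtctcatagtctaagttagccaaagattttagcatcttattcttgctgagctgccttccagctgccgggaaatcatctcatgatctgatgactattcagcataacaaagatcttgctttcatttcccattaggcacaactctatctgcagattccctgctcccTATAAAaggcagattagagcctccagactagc
Cxcl1, chr5:90890995-90891244, plus strand: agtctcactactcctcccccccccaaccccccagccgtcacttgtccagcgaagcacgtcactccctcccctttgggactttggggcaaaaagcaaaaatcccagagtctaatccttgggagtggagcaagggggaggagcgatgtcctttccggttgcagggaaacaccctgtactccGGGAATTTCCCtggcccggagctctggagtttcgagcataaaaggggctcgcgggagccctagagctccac
Il33, upstream start, chr19:29924863-29925112, plus strand: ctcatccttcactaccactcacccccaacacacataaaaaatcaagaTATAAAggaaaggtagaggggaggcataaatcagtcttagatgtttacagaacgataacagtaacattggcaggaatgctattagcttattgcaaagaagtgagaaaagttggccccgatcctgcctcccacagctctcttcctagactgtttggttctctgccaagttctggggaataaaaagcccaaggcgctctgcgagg
Il33, downstream start, chr19:29945540-29945789, plus strand: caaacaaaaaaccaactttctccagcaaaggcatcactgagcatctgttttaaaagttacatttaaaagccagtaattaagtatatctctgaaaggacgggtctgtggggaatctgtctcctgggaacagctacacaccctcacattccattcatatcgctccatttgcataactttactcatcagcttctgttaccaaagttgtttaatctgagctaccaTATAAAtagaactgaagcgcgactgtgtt

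The Ccl3 window held no match to any of these motifs. The Ccl9 window held TATAAA on the strand opposite to the gene at -224 to -219 and at -94 to -89. On the gene's own strand it held TATAAA at -92 to -87, which overlaps the match at -94 to -89. It also held a palindromic TGANTCA at -53 to -47 and a kappaB match at -35 to -26 (positions counted back from the start). Ccl8 had TATAAA at -32 to -27. The kappaB match of Cxcl1 read on both strands, at -71 to -62 and -70 to -61, and each Il33 window had a TATAAA, at -203 to -198 for the upstream start and -29 to -24 for the downstream start. Across all 32851 windows of this length, TATAAA was found in 12.4%, TGANTCA in 6.75% and the kappaB consensus in 3.90%. Of the 138 windows of members, tested or not, 26 held TATAAA, 23 held TGANTCA and 13 held the kappaB consensus. Of 21 windows of 18 higher members, 4 held TATAAA, 4 held TGANTCA and 3 held the kappaB consensus, and of 14 windows of 12 lower members the numbers were 0, 0 and 1. The paired homeodomain motif of mouse Dux was in 0.097% of all windows and in 0 of the 138 windows of members. A match describes letters only, and its absence says nothing of the factor.

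Ccl3 (MIP-1 alpha, Entrez 20302), which acts on CCR1 among other receptors, had 101.8, 108.4 and 108.5 CPM in induced libraries and 0.748, 0.938 and 1.54 CPM in uninduced libraries. All induced libraries were far above all uninduced ones, and the level barely varied within the induced group. The fold change was 99.2, or 6.63 ± 0.11 on the log2 scale (SE, edgeR adjusted p = 7.6e-23), which placed Ccl3 at rank 215 of 12969 genes ordered by rise. The raw counts behind it were 1787, 1675 and 1891 in induced libraries, against 25, 29 and 47 in uninduced libraries.

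Ccl7 (MCP-3), a ligand of CCR2 and other CC receptors, had 92.6, 111 and 100.2 CPM in induced libraries, against 7.15, 6.66 and 6.98 CPM in uninduced libraries. Its neighbour Ccl2 (MCP-1), the main CCR2 ligand, had 46.7, 42.9 and 43.7 CPM in induced libraries, against 5.09, 4.59 and 4.59 CPM in uninduced libraries. The groups did not overlap for Ccl7 or Ccl2, and the log2 fold changes were 3.87 ± 0.07 for Ccl7 and 3.22 ± 0.08 for Ccl2 (edgeR adjusted p = 4.78e-23 and 2.48e-21). Ccl9 (MIP-1 gamma), a mouse CCR1 ligand, had 102, 111 and 111 CPM in induced libraries, against 13.2, 14.8 and 16.4 CPM in uninduced libraries. It was thus already present without doxycycline, at more than 10 CPM in every uninduced library, and was higher by 2.87 ± 0.07 (log2, edgeR adjusted p = 4.79e-21). Ccl8 (MCP-2), which in mouse signals through CCR8, was at a low level, with 2.05, 1.49 and 1.66 CPM in induced libraries, against 0.449, 0.841 and 0.492 CPM in uninduced libraries. Its rise of 1.55 ± 0.29 (log2, edgeR adjusted p = 2.82e-05) was not called without TMM factors (0.59, adjusted p = 0.0558). Ccl25, a thymus and gut chemokine, was not called (-0.11, adjusted p = 0.593) and its groups overlapped.

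Along chromosome 11, the members that were higher stood beside relatives that were nearly silent. In the proximal cluster, Ccl2 (chr11:82035577-82037452), Ccl7 (chr11:82045712-82047525) and Ccl8 (chr11:82115185-82116799) were higher. Between them, the eosinophil attractant Ccl11 had 3 counts over the induced libraries, against 9 over the uninduced libraries, and Ccl12 (MCP-5) had 5 counts, against 4. Ccl1, the last gene of that run, had 0 counts in induced and 1 in uninduced libraries. In the distal cluster, Ccl9 (chr11:83572917-83578636) and Ccl3 (chr11:83647843-83649378) were higher, whereas Ccl5 (RANTES) had 1 count in induced and 1 in uninduced libraries and Ccl6 had 6 counts, against 3. Ccl4 (MIP-1 beta) had 25 counts in induced and 1 in uninduced libraries, a ratio of 47.0 after scaling with a 95% counting interval of 7.70 to 1930. The RefSeq body of Ccl4 overlaps that of Ccl3, and how the counting assigned reads in the overlap is not given. The Ccl4 count is therefore uncertain, and the Ccl3 counts carry the same limit.

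Ccr1 and Ccr2, receptors of these CC chemokines, were close to absent from the cells. Ccr1 had 0 counts in all 6 libraries, and Ccr2 had 0 in induced and 1 in uninduced libraries. A count of 0 in a library allows up to 0.171 to 0.194 CPM in induced and 0.0898 to 0.0983 CPM in uninduced libraries, by a floor of 3 counts.

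**Figure D2:**
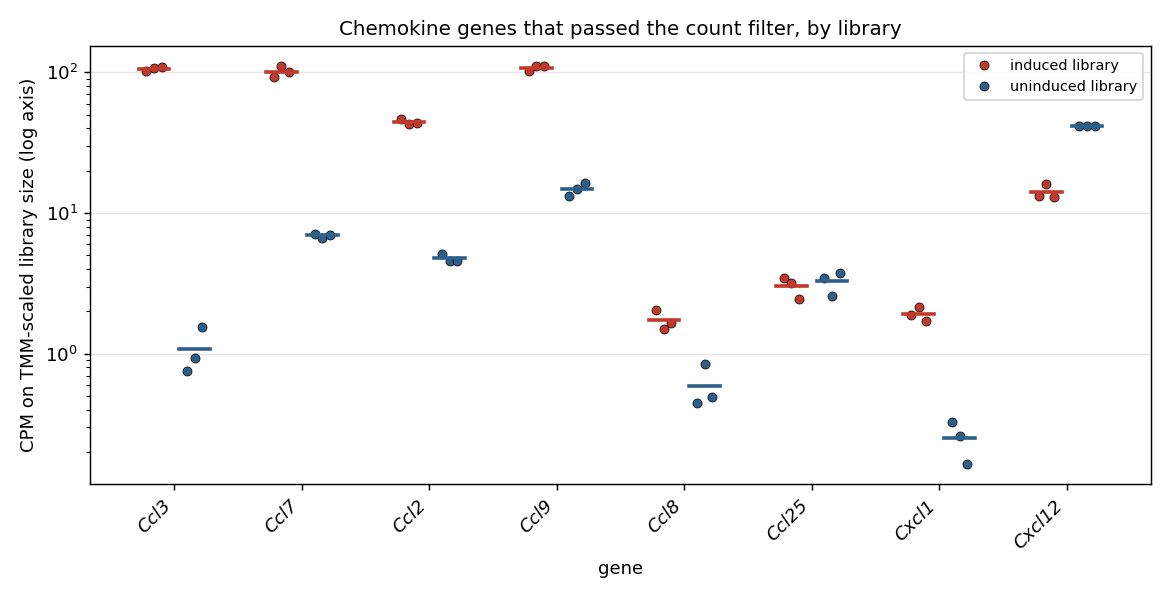
CPM on a log axis in each of 3 induced (red, left of each pair) and 3 uninduced (blue) libraries for the 8 chemokine genes that passed the count filter, with horizontal lines at the group means. Ccl3, Ccl7, Ccl2, Ccl9, Ccl8 and Cxcl1 are higher in every induced library, Cxcl12 is lower, and the Ccl25 groups overlap.

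Of the CXC chemokines, 2 of 13 could be tested and they moved in opposite directions. Cxcl1 (KC), a neutrophil attractant, had 1.88, 2.14 and 1.72 CPM in induced libraries, against 0.329, 0.259 and 0.164 CPM in uninduced libraries. The groups did not overlap, and the rise was 2.89 ± 0.31 (log2, edgeR adjusted p = 9.64e-09). Cxcl12 (SDF-1), a homeostatic chemokine that guides muscle and blood precursors, had 13.2, 16.1 and 13.1 CPM in induced libraries, against 41.8, 41.3 and 41.8 CPM in uninduced libraries. Every induced library lay under every uninduced one, with a log2 fold change of -1.57 ± 0.07 (edgeR adjusted p = 1.02e-15).

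The receptors of these CXC ligands moved with them in sign. Cxcr2, the receptor of Cxcl1, averaged 31.5 CPM in induced and 0.945 CPM in uninduced libraries and was higher by 5.05 ± 0.13 (log2, edgeR adjusted p = 5.21e-21). Cxcr4, the signalling receptor of Cxcl12, averaged 7.76 CPM in induced and 33.1 CPM in uninduced libraries and was lower by a log2 fold change of -2.09 ± 0.08 (edgeR adjusted p = 1.3e-17). Ackr3, the scavenging receptor of Cxcl12, was lower as well, at -1.95 ± 0.11 (edgeR adjusted p = 8.06e-14). Cxcl2 and Cxcl3, the close relatives of Cxcl1, had 0 counts in every library. Cxcl10, an interferon-responsive chemokine, had 32 counts over the induced libraries, against 6 over the uninduced libraries, and Cxcl13, a B cell attractant, had 8, against 30, too few to test.

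Among the interleukin ligands, 6 of 38 could be tested, of which 4 were higher and 2 were lower in induced cells. The shares over all tested genes were 41.3% higher and 41.2% lower. Together, the ligands summed to 43.3 ± 1.26 CPM in induced and 10.5 ± 0.287 CPM in uninduced libraries (SD, n = 3 each), and Il33 supplied most of the induced level. Il33 encodes a nuclear cytokine of the interleukin-1 family that is released from damaged cells. It had 32.6, 33.7 and 34.7 CPM in induced libraries, against 2.93, 3.46 and 3.44 CPM in uninduced libraries. These levels were about equal within each group, and the fold change was 10.3, or 3.36 ± 0.09 on the log2 scale (edgeR adjusted p = 1.46e-20). Il1f9, which encodes interleukin-36 gamma of the same family, had 3.71, 3.50 and 3.04 CPM in induced libraries, against 0.808, 0.841 and 0.459 CPM in uninduced libraries. It was higher in every induced library, by 2.26 ± 0.23 (log2, edgeR adjusted p = 2.82e-09).

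Il6 and Il11, cytokines that signal through the shared subunit gp130, were scarce, at 0.741 to 2.12 CPM in induced libraries. Il6 had 0.969, 1.04 and 0.861 CPM in induced libraries, against 0.210, 0.388 and 0.131 CPM in uninduced libraries, a rise of 1.95 ± 0.39 (log2, edgeR adjusted p = 8.44e-05). Il11 had 0.741, 0.906 and 2.12 CPM in induced libraries, against 0.599, 0.776 and 0.525 CPM in uninduced libraries, and here the groups overlapped. Its rise of 1.00 ± 0.35 (log2, edgeR adjusted p = 0.0135) rested on induced replicate 3, without which it was 0.37 (adjusted p = 0.361). It was 0.04 (adjusted p = 0.921) without TMM factors.

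Il34 and Il7 were the interleukin ligands that fell. Il34, which shares the receptor Csf1r with the macrophage growth factor Csf1, had 1.20, 1.55 and 0.918 CPM in induced libraries, against 3.50, 3.24 and 3.84 CPM in uninduced libraries. The groups were separate, with a log2 fold change of -1.54 ± 0.21 (edgeR adjusted p = 3.1e-07). Csf1 itself averaged 96.7 CPM in induced and 349 CPM in uninduced libraries (log2 fold change -1.85 ± 0.05, edgeR adjusted p = 4.31e-21). Csf1r had 1 count over the induced and 9 over the uninduced libraries. Il7, a growth factor of lymphocyte precursors, was at about 1 CPM or less in every library and lower by a log2 fold change of -1.47 ± 0.38 (edgeR adjusted p = 0.00116).

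The interleukin receptor genes divided evenly, with 8 higher, 8 lower and 4 not called of 20 tested. These shares, 40% each way, were near the 41.3% higher and 41.2% lower of all tested genes. The summed level of the receptor genes was 327 ± 8.70 CPM in induced and 317 ± 10.7 CPM in uninduced libraries (SD, n = 3 each). The tested members ranged from -2.03 to 2.73 in log2 fold change.

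For the interleukin-1 family, the accessory chain shared by several receptors, Il1rap, had 30.5, 29.1 and 29.9 CPM in induced libraries, against 9.16, 8.02 and 8.65 CPM in uninduced libraries. Il1r1, the chain that binds interleukin-1 itself, had 12.7, 11.3 and 12.5 CPM in induced libraries, against 50.8, 49.6 and 49.1 CPM in uninduced libraries. Neither gene's groups overlapped, and the log2 fold changes were 1.79 ± 0.08 for Il1rap and -2.03 ± 0.07 for Il1r1 (edgeR adjusted p = 1.78e-16 and 1.02e-18). Il18rap, the accessory chain for interleukin-18, had 11.3, 10.7 and 8.78 CPM in induced libraries, against 1.53, 1.72 and 1.48 CPM in uninduced libraries. It was higher in all induced libraries, by 2.70 ± 0.14 (log2, edgeR adjusted p = 1.54e-14).

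Several other binding chains and ligands of this family were scarce. Il18r1, the binding chain that pairs with Il18rap, had 0 counts in all libraries, and Il18 itself had 8 counts over the induced and 33 over the uninduced libraries. Il1rl1 (ST2), the binding chain for interleukin-33, averaged 0.480 CPM in induced and 0.756 CPM in uninduced libraries and was not called (-0.65, edgeR adjusted p = 0.11), though it was without uninduced replicate 1 (-0.88, adjusted p = 0.0378). Il1rl2, the binding chain for interleukin-36, had 0 counts in induced and 4 in uninduced libraries. Il1a had 3 counts in each group, Il1b had 2 in induced and 3 in uninduced libraries, and the antagonist Il1rn had 3 in induced and 12 in uninduced libraries.

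Il17ra, the subunit common to the interleukin-17 receptors, had 122, 119 and 123 CPM in induced libraries, against 40.0, 38.5 and 39.6 CPM in uninduced libraries. Il17rc, its partner for the ligands encoded by Il17a and Il17f, had 12.1, 11.8 and 11.3 CPM in induced libraries, against 23.3, 26.8 and 24.3 CPM in uninduced libraries. The groups were separate for both genes, with log2 fold changes of 1.63 ± 0.05 for Il17ra and -1.08 ± 0.08 for Il17rc (edgeR adjusted p = 5.33e-20 and 9.08e-12). Il17rd, a further member of the family, was higher by 0.21 ± 0.08 (log2, edgeR adjusted p = 0.0243). That call was lost on leaving out induced replicate 1 or 2 or uninduced replicate 2 or 3 (adjusted p = 0.0627, 0.0603, 0.0615 and 0.135), and without TMM factors the value was -0.75. Of the ligands, Il17f had 18 counts over the induced and 7 over the uninduced libraries, and Il17a had 2, against 1.

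In the interleukin-6 system, the ligand-specific chain Il6ra had 7.75, 9.38 and 7.18 CPM in induced libraries, against 3.44, 3.53 and 2.69 CPM in uninduced libraries. The signal-transducing chain Il6st (gp130) had 43.8, 38.1 and 36.4 CPM in induced libraries, against 81.9, 72.0 and 68.5 CPM in uninduced libraries. The groups did not overlap for either gene, and the log2 fold changes were 1.32 ± 0.14 for Il6ra and -0.91 ± 0.07 for Il6st (edgeR adjusted p = 5.56e-09 and 2.33e-09). Lifr, a chain that pairs with gp130 to bind leukaemia inhibitory factor, was higher by 1.18 ± 0.04, and Osmr, which pairs with it to bind oncostatin M, had -0.63 ± 0.08 (log2, edgeR adjusted p = 6.25e-18 and 2.15e-07). Il11ra1, the chain specific for interleukin-11, had 18 counts over the induced and 34 over the uninduced libraries.

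**Figure D3:**
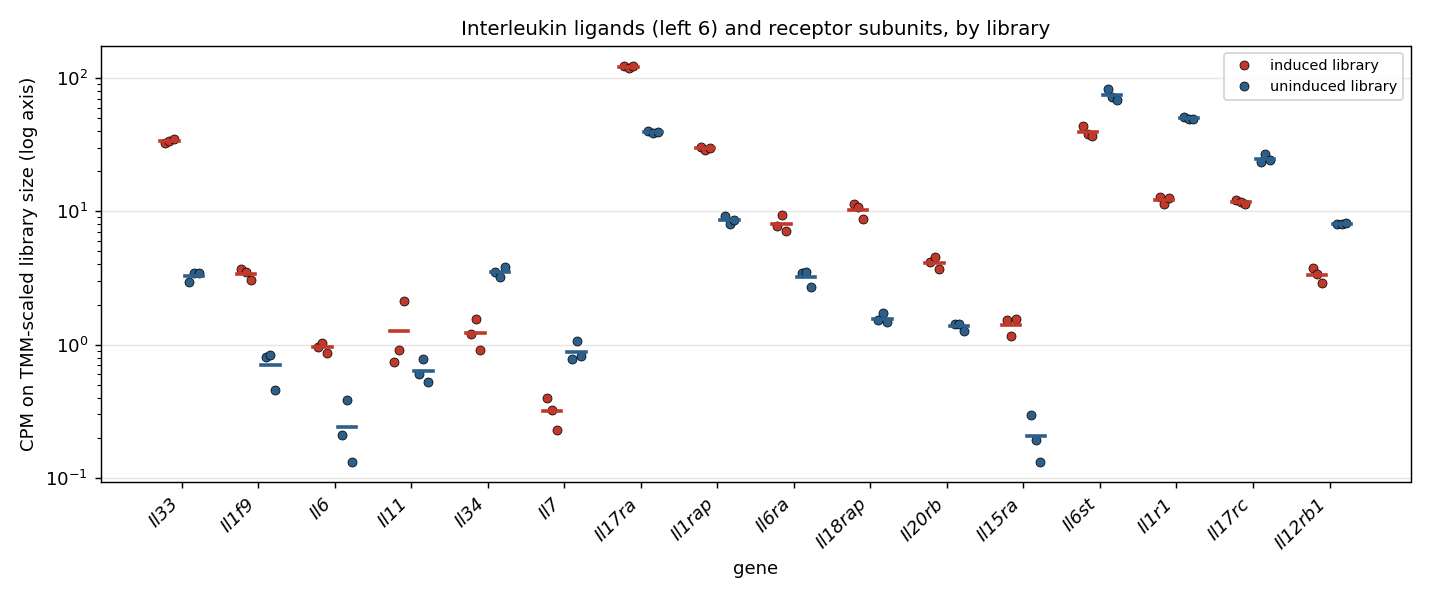
CPM on a log axis in 3 induced (red, left) and 3 uninduced (blue) libraries for 6 interleukin ligands and 10 receptor subunits, with lines at the group means. Il33, Il17ra, Il1rap, Il6ra and Il18rap are higher in every induced library, Il1r1, Il17rc, Il6st and Il12rb1 are lower, and Il11 overlaps.

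Of the remaining receptor genes, Il15ra, which presents interleukin-15 to neighbouring cells, had 1.54, 1.17 and 1.55 CPM in induced libraries, against 0.299, 0.194 and 0.131 CPM in uninduced libraries. Il20rb, a subunit for interleukins 19, 20 and 24, had 4.16, 4.53 and 3.67 CPM in induced libraries, against 1.44, 1.42 and 1.28 CPM in uninduced libraries. Il12rb1, the chain shared by the interleukin-12 and interleukin-23 receptors, had 3.76, 3.37 and 2.93 CPM in induced libraries, against 8.02, 8.02 and 8.23 CPM in uninduced libraries. Il15ra and Il20rb were higher and Il12rb1 was lower in every induced library, at log2 fold changes of 2.73 ± 0.36, 1.57 ± 0.18 and -1.27 ± 0.13 in that order (edgeR adjusted p = 2.01e-07, 1.91e-08 and 2.75e-09). Il15 had 5 counts in induced and 2 in uninduced libraries, Il20ra, a partner of Il20rb, had 0 in all libraries, and Il22ra1, its other partner, had 0 in induced and 1 in uninduced libraries. Il12a, the p35 chain of interleukin-12, had 3 counts in induced and 31 in uninduced libraries, a ratio of 0.182 after scaling (95% counting interval 0.0356 to 0.584).

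Il4ra, a chain for interleukin-4, was lower by a log2 fold change of -0.74 ± 0.08, Il10rb, a chain for interleukin-10, by -0.71 ± 0.10 and Il13ra1, a chain for interleukin-13, by -0.27 ± 0.06 (edgeR adjusted p = 5.1e-09, 3.21e-07 and 4.33e-04). Il23r, which pairs with Il12rb1 and was under 1 CPM in every library, was lower by -1.51 ± 0.48 (adjusted p = 0.00634). Il2rg, the common gamma chain, was higher by 0.44 ± 0.14 (adjusted p = 0.00718), a call that was lost without uninduced replicate 1 (0.33, adjusted p = 0.0509) and that turned to -0.52 without TMM factors. Il4i1, an amino acid oxidase named for its induction by interleukin-4, had 0.285, 0.259 and 0.402 CPM in induced libraries, against 0.539, 0.453 and 0.590 CPM in uninduced libraries. These groups were separate but close, and the gene was not called (-0.72 ± 0.42, edgeR adjusted p = 0.112), except without TMM factors (-1.67, adjusted p = 4.47e-04). Il3ra, Il18bp and Il12rb2 were not called (edgeR adjusted p of 0.0776, 0.604 and 0.182), but all were called lower without TMM factors (-1.22, -1.10 and -1.65 in that order). Il3ra was also called without uninduced replicate 3 (-0.35, adjusted p = 0.0266), with upper-quartile scaling (-0.40, adjusted p = 0.00735) and without the count filter (-0.33, adjusted p = 0.0268).

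In the TNF superfamily, 3 of the 4 ligands tested were lower and 1 was higher, against 41.2% lower and 41.3% higher among all tested genes. All were scarce: the summed ligand level was 4.55 ± 0.868 CPM in induced and 9.28 ± 1.01 CPM in uninduced libraries (SD, n = 3 each). Tnfsf10 (TRAIL), an inducer of apoptosis, had 1.48, 1.55 and 1.89 CPM in induced libraries, against 0.120, 0.259 and 0.0656 CPM in uninduced libraries. Its groups were well separated, and the rise was 3.43 ± 0.38 (log2, edgeR adjusted p = 1.4e-08), or 4.05 without uninduced replicate 2. The TRAIL receptor Tnfrsf10b had 49.2, 43.9 and 47.4 CPM in induced libraries, against 21.7, 20.9 and 23.1 CPM in uninduced libraries. Tnfrsf10b was higher in every induced library, by 1.10 ± 0.06 (log2, edgeR adjusted p = 5.51e-14), but by only 0.13 without TMM factors (edgeR adjusted p = 0.0466). Fas, another death receptor, moved the same way, at 1.25 ± 0.11 (edgeR adjusted p = 4.76e-10). Tnfrsf22 and Tnfrsf23, the decoy TRAIL receptors of the mouse, were not called (-0.17 and 0.04, adjusted p = 0.215 and 0.61), and their groups overlapped. Both were called lower without TMM factors (-1.13 for Tnfrsf22 and -0.93 for Tnfrsf23, adjusted p = 7.28e-09 and 3.76e-12), and Tnfrsf22 also with upper-quartile scaling (-0.32, adjusted p = 0.0243).

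Tnfsf15 (TL1A), a T cell costimulator, had 0.627, 1.29 and 0.574 CPM in induced libraries, against 4.85, 3.62 and 3.97 CPM in uninduced libraries. Tnfrsf25 (DR3), its receptor, had 1.08, 0.906 and 0.574 CPM in induced libraries, against 3.41, 3.53 and 4.49 CPM in uninduced libraries. Ligand and receptor were thus lower together, with no overlap, at log2 fold changes of -2.34 ± 0.24 and -2.15 ± 0.23 (edgeR adjusted p = 4.54e-09 and 8.67e-09). Tnfsf12 (TWEAK), which drives muscle wasting in mice, had 0.399, 0.0647 and 0.172 CPM in induced libraries, against 0.988, 1.26 and 1.31 CPM in uninduced libraries. It was lower at -2.41 ± 0.42 (log2, edgeR adjusted p = 1.32e-05), or at -3.23 without induced replicate 1, and its gene body overlaps other annotated transcripts. Its receptor Tnfrsf12a (Fn14) was among the most abundant members, with 184, 190.3 and 196 CPM in induced libraries, against 244, 255 and 279 CPM in uninduced libraries. The difference was small but free of overlap, at -0.45 ± 0.05 (log2, edgeR adjusted p = 8.98e-09). Tnfsf9 (4-1BB ligand) had 0.741, 0.647 and 1.26 CPM in induced libraries, against 2.60, 2.91 and 4.88 CPM in uninduced libraries, and was lower at -1.95 ± 0.31 (edgeR adjusted p = 2.21e-05). Its receptor Tnfrsf9 had 10 counts in each group.

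The receptors for TNF were both lower. Tnfrsf1a, the widely expressed death-domain receptor, had 44.1, 43.2 and 48.5 CPM in induced libraries, against 55.3, 53.9 and 53.7 CPM in uninduced libraries. Tnfrsf1b, which lacks a death domain, had 14.8, 13.9 and 13.7 CPM in induced libraries, against 29.7, 29.4 and 28.3 CPM in uninduced libraries. Neither overlapped, and the log2 fold changes were -0.26 ± 0.05 for Tnfrsf1a and -1.04 ± 0.07 for Tnfrsf1b (edgeR adjusted p = 1.17e-04 and 1.46e-12). Tnf itself had 3 counts over the induced and 4 over the uninduced libraries. Tnfrsf11a (RANK), the osteoclast receptor, was higher by 0.88 ± 0.32 (edgeR adjusted p = 0.0157), which was lost without induced replicate 3 (0.55, adjusted p = 0.18) or uninduced replicate 2 (0.73, adjusted p = 0.0667). Tnfrsf21 (DR6) was higher by 0.28 ± 0.11 (edgeR adjusted p = 0.0265), which was lost without induced replicate 1 or 3 or uninduced replicate 3 (adjusted p = 0.111, 0.0834 and 0.079) and with DESeq2 (adjusted p = 0.0538). Both turned negative without TMM factors (-0.08 for Tnfrsf11a and -0.68 for Tnfrsf21). Tnfrsf19 and Tnfrsf4 were not called (adjusted p = 0.354 and 0.285).

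**Figure D4:**
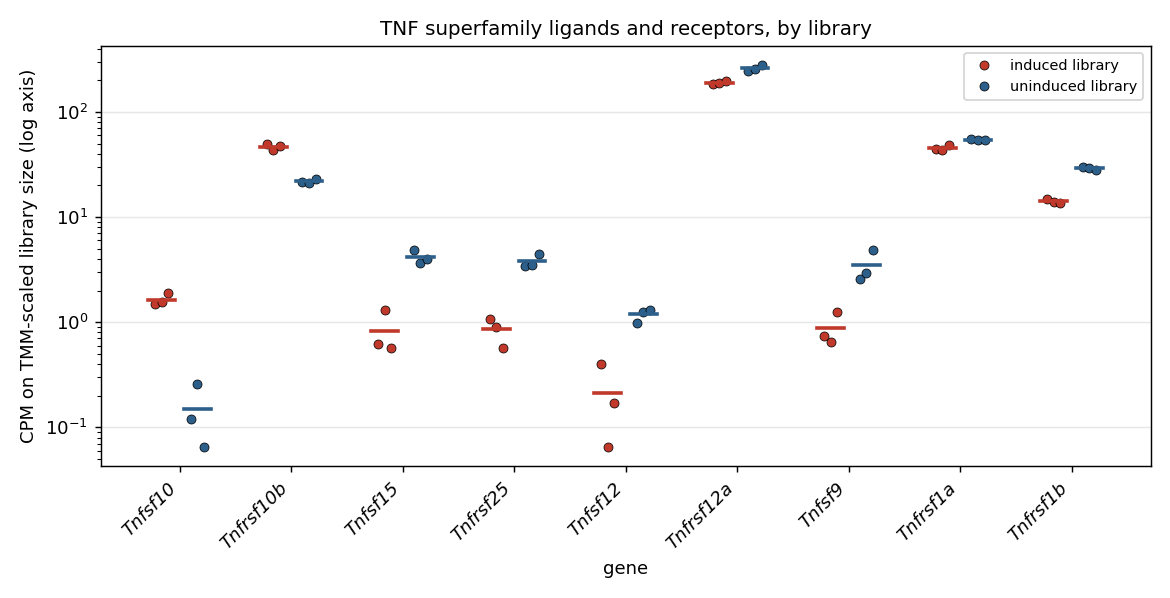
CPM on a log axis in 3 induced (red, left) and 3 uninduced (blue) libraries for 9 TNF superfamily ligands and receptors, with lines at the group means. Tnfsf10 and Tnfrsf10b are higher in every induced library and the other 7 genes are lower, by little for Tnfrsf12a and Tnfrsf1a.

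Set per kilobase of exon, the order of the members differed between the groups. In induced libraries, Ccl3 at 139 ± 4.99 RPKM and Ccl7 at 127 ± 11.7 RPKM led, followed by Tnfrsf12a at 98.4 ± 3.23, Ccl2 at 39.0 ± 1.75 and Ccl9 at 35.5 ± 1.78 RPKM (SD, n = 3 each). In uninduced libraries, Tnfrsf12a led at 134 ± 9.41 RPKM, then Tnfrsf1a at 21.0 RPKM, Il13ra1 at 10.1 ± 0.704, Il17rc at 9.28 ± 0.666 and Ccl7 at 8.66 ± 0.310 RPKM. Ccl3 and Ccl7 in induced libraries, and each neighbouring pair of the last 3 in uninduced libraries, differed by no more than the sum of their SDs. Ccl3, at 1.40 RPKM in uninduced libraries, was thus far down the order without doxycycline.

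The other 98 members were not tested. Of these, 29 had no count in any library, among them the T cell cytokines Il2, Il9, Il13 and Il21 and the receptors Il2ra and Il7r. The remaining 69 had 1 to 52 counts over the 6 libraries, with a median of 6. Those with most counts were Il11ra1 (52 counts), the BAFF receptor Tnfrsf13c of B cells (44), Il16 (42), Il18 (41) and the decoy receptor Tnfrsf11b (40). Counts in induced libraries alone were found for 16 of the 69 and counts in uninduced libraries alone for 8. Over the whole table, 16282 to 16429 genes had a count in each induced library, against 15553 to 15670 in each uninduced library. The share of all genes with counts in 1 group alone was not computed, so the split is not read as particular to the members. Of those listed at 0 in uninduced libraries, Ccl19, a lymph node chemokine, had 11 counts in induced libraries. Its ratio after scaling was 6.90 when 3 counts are put in place of the group's 0. Il31, a T cell cytokine linked to itch, had 9 counts and a ratio of 5.64 by the same substitution. Tnfsf11 (RANK ligand) had 8 counts and a ratio of 5.02. These ratios leave out counting error in the induced counts. Il13ra2, a decoy receptor for interleukin-13, had 15 counts in induced and 3 in uninduced libraries, a ratio of 9.40 after scaling (95% counting interval 2.66 to 50.7). Intervals and floors cover counting error only.

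The genes that carry these signals inside the cell, and cytokine genes with other names, were taken from 5 lists that held 163 genes in the table, of which 111 were tested. Of these, 53 were higher, 44 were lower and 14 were not called, or 47.7% and 39.6%, against 41.3% and 41.2% of all tested genes, and without TMM factors the split was 26 higher and 74 lower. The chemokine receptor list, which also holds the chemokines Cx3cl1 and Xcl1, had 2 of 7 tested genes higher and 4 lower, with a median log2 fold change of -1.47. Besides the receptors given above, the membrane-bound chemokine Cx3cl1 was higher by 2.11 ± 0.06 (edgeR adjusted p = 1.68e-20). Cxcr6, the Cxcl16 receptor, was lower at -3.33 ± 0.23 (edgeR adjusted p = 2.43e-12), or -3.94 without induced replicate 3. Of 22 tested cytokines and receptors with other names, 8 were higher and 12 lower, with a median of -0.27. Those higher included Csf3r, the receptor of granulocyte colony-stimulating factor, at 3.10 ± 0.40, the leptin receptor Lepr at 3.08 ± 0.23 and the ectodysplasin receptor Eda2r at 2.00 ± 0.05. Clcf1, a cytokine that signals through gp130, was lower at -1.44 ± 0.11.

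In the NF-kappaB and TNF receptor list, 23 of 41 tested genes were higher and 12 were lower, with a median log2 fold change of 0.32. Rel, a transcription factor subunit, was higher by 3.05 ± 0.09 and Cflar, an inhibitor of caspase-8, by 2.39 ± 0.05, whereas Map3k14, the kinase of the non-canonical pathway, had -1.46 ± 0.09 and its inhibitor Traf3 had -1.23 ± 0.07. Traf1 had 84 counts in induced and 3 in uninduced libraries, a ratio of 52.7 after scaling (95% counting interval 17.4 to 261). Nfkbia and Tnfaip3, inhibitors that NF-kappaB itself induces, were higher by 0.95 ± 0.07 and 0.63 ± 0.07, but had -0.01 and -0.34 without TMM factors. In the interleukin-1 and Toll adaptor list, 6 of 16 were higher and 8 lower, with a median of -0.21. Ticam1 and Peli1 were higher by 1.76 ± 0.07 and 1.67 ± 0.06, and Irak2 and the inhibitory receptor Sigirr were lower at -1.50 ± 0.11 and -1.83 ± 0.36. In the JAK, STAT and SOCS list, 14 of 25 were higher and 8 lower, with a median of 0.25. Cish, a feedback inhibitor, was higher by 2.73 ± 0.18 and Jak2 by 2.01 ± 0.05, while Socs2 had -1.63 ± 0.08. Without TMM factors, these splits turned to 9 higher and 28 lower for the NF-kappaB list and to 7 higher and 17 lower for the JAK list. The adaptor list then had 2 higher and 11 lower. All fold changes named from these lists passed the edgeR threshold of 0.05.

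**Figure D5:**
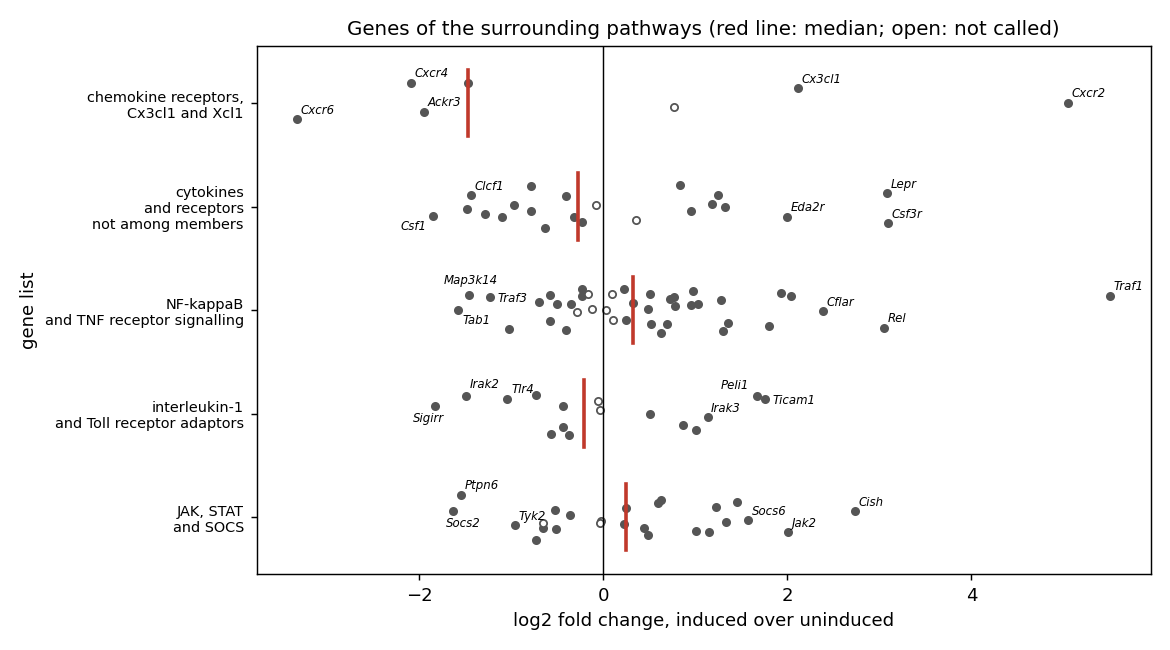
Log2 fold change, induced over uninduced, of the tested genes of 5 pathway lists (1 point per gene, spread vertically within a list). Red lines mark list medians from -1.47 for chemokine receptors to 0.32 for NF-kappaB and TNF receptor signalling, and open points were not called.

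Markers of leukocytes and macrophages summed to 10.7 to 12.6 CPM in induced libraries, against 5.57 to 7.34 CPM in uninduced libraries. Of 19 such markers, 4 could be tested and 3 were higher: Coro1a (2.10 ± 0.25), Cd14 (0.45 ± 0.14) and Cd79a, which had 43 counts in induced and 5 in uninduced libraries, while without TMM factors 2 of the 4 were higher and 2 lower. Without the count filter, 6 of 16 were higher and 0 were lower. Of all 19 markers, 3 had no count in any library and 16 had at least 1. The examples below were picked at or near 0 from the 15 not tested in the main fit, and do not stand for the list. Ptprc (CD45) had 3 counts in induced and 1 in uninduced libraries, Adgre1 (F4/80) had 1, against 0, and Tyrobp and Cd4 had 0 in every library. Of 7 fibroblast markers tested, 1 was higher, Pdgfra (1.91 ± 0.07), and 5 were lower, Col1a2 among them (-2.80 ± 0.07), and the list summed to 156 to 164 CPM in induced libraries, against 315 to 346 CPM in uninduced libraries. Of 4 endothelial markers tested, 2 were higher and 2 were lower, and the list summed to 10.3 to 11.5 CPM in induced libraries, against 10.2 to 11.7 CPM in uninduced libraries. The part of these cell types in the values of the members was not tested.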

How the data were processed

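Raw counts of reads per Entrez gene were analysed as the authors deposited them, in 3 induced and 3 uninduced libraries grouped by the treatment in the sample titles. Per the submitters' processing notes, CASAVA, TopHat2 2.0.12, Bowtie2 2.2.3 and build mm10 were used. How reads were counted (program, strand, multi-mapping, annotation) is not given in the sources used here, so overlapping genes can share reads, and 19 of the 50 tested members overlap another RefSeq gene. Libraries came from separate cultures of 1 clone, so p-values measure the spread between these cultures, and replicate pairs differed by more than sampling noise (chi-square 2.48 to 7.09 times its degrees of freedom).

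In R 4.3.3, genes were filtered with filterByExpr at its defaults, scaled with TMM (mean factors 0.716 for induced and 1.40 for uninduced libraries) and tested two-sided by glmQLFit (robust=TRUE) and glmQLFTest of edgeR 4.0.16, p-values being adjusted by Benjamini-Hochberg over the 12969 genes tested. The fit was also run on simulated counts with 200 changed genes and 1 biological CV of 4.65% for all genes. That simulation held no shift in RNA composition between the groups, so it cannot speak to calls that depend on TMM scaling. Standard errors are the absolute log2 fold change over the square root of F. Exon lengths are unions of GENCODE vM21 exons, and coordinates and promoters are RefSeq's on GRCm38.p6, the assembly of mm10. A group with 0 counts gave a ratio against 3 counts over that group, a bound that leaves out counting error in the other group. With 1 to 3 counts, a ratio and its 95% counting interval (exact binomial) were given.

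Values in every library are given for members called at 2-fold or more with a mean of 1 CPM or more in a group and for the 2 most abundant of each role, and up to 3 rising and 3 falling genes of each pathway list are named by size, with receptor partners; some genes these rules select are not reported here. Lifr, Osmr, Fas, Nfkbia, Tnfaip3, Cxcl10, Cxcl13, Il12a and the members with bounds or short counts were named after their values were seen. The members and lists were chosen with earlier results of these data known. Alternatives were DESeq2 1.42.0, upper-quartile and RLE scaling, no TMM factors, limma-voom (limma 3.58.1), other filters, robust=FALSE, a replicate block, an adjusted p of 0.01 and each library left out.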

Additional observations from a re-analysis of the deposited data

How the results depend on the processing

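The 30 tested members selected by fold or abundance for values in every library kept their direction under every alternative run, and only Ccl8 and Il4i1 among them changed their call, without TMM factors (library size only). That scaling moved the median log2 fold change of all tested genes to -0.97 and gave 16 members higher and 30 lower, 1977 of all genes higher and 9949 lower, and 26 pathway genes higher and 74 lower. Under it, Il17rd (-0.75), Il2rg (-0.52), Tnfrsf23 (-0.93), Tnfrsf21 (-0.68) and Tnfrsf11a (-0.0799) reversed. Without the count filter 119 members were tested and 34 were higher. Leaving out each library gave 19 to 21 members higher and 18 to 19 lower, 5228 to 5391 of all genes higher and 5130 to 5300 lower, and 51 to 55 pathway genes higher and 42 to 46 lower.

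DESeq2 called 21 members higher and 18 lower, limma-voom, RLE and robust=FALSE 22 and 18 each, upper-quartile scaling 19 and 20, an adjusted p of 0.01 18 and 18, and a mean of 1 CPM or more 17 and 15 of 37 tested. With a replicate block, 22 members were higher and 18 lower, and 5411 of all genes were higher and 5402 lower. Same-numbered libraries correlated in their deviations from the group means at 0.06, 0.017 and 0.033, none over 0.1, so the numbers were not taken to pair the cultures, although each library correlated best with its own number. Depth limits the 69 members with counts that were not tested.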
